A study of Rattus norvegicus with 9 samples.

Results

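A set of 41 genes in rat alveolar macrophages stood high 1 d after nitrogen mustard and close to the control level 28 d after it. The series holds 9 RNA sequencing libraries of alveolar macrophages, phagocytes that patrol the air spaces of the lung, from male Wistar rats of 225 to 250 g. There were 3 libraries from rats collected 1 d after nitrogen mustard (NM day 1), 3 from rats collected 28 d after it (NM day 28) and 3 from rats given phosphate-buffered saline (PBS). Nitrogen mustard (mechlorethamine hydrochloride, 0.125 mg/kg) or PBS was given into the trachea under isoflurane, and cells were then collected by gentle massage. The sources used here do not give the age of the rats, the number of rats behind each library or the day on which the PBS cells were collected. The design text calls the 3 libraries of a group biological replicates, numbered 0, 1 and 2. NM day 1 and NM day 28 are both compared with the same 3 PBS libraries.

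The genes were chosen from these measurements. FPKM (fragments per kilobase of transcript, scaled to the mapped fragments of the library, the authors' deposited unit) of all transcripts of a gene were added, and groups were compared on the mean of log2(FPKM + 1). A gene entered the set when its NM day 1 mean lay at least 1.5 above PBS on that scale, its NM day 28 mean lay within 0.5 of PBS, every NM day 1 library lay above every NM day 28 and PBS library, and its NM day 1 mean was at least 5 FPKM. Of 17109 genes, 172 met the day 1 criteria. By day 28, 104 of these (60.5%) still stood more than 0.5 above PBS, 60 (34.9%) lay within 0.5 of it and 8 (4.65%) lay more than 0.5 below it. From the 60, chemokine, MHC, surfactant, interleukin and other families were left out by symbol, which removed 19 genes and left 41. All 41 met the filter for testing (at least 1 FPKM in at least 3 of 9 libraries, 9885 genes), and 20 of them would have met it without the NM day 1 libraries. Because the rule used all 3 groups, the values of the 41 genes below are a description with no test.

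Nitrogen mustard is a bifunctional alkylating agent that cross-links DNA and damages the cells lining the airways and alveoli. Alveolar macrophages normally hold the air space quiet, clear surfactant and dead cells, and after injury are joined by monocytes that arrive from blood. In an acute phase such cells make antimicrobial peptides, procoagulant and tissue-repair proteins and receptors for lymphocyte signals, and much of this output is transient. The set holds genes of each of these kinds, and which cells made their RNA was not tested.

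The rise at day 1 was large for the top of the set and moderate for the rest. The day 1 difference from PBS ran from 1.55 to 4.4 on the log2(FPKM + 1) scale with a median of 2.30, and it was at least 3 for 10 genes, at least 2 for 26 and under 2 for 15. The day 28 difference ran from -0.46 to 0.48 with a median of 0.07. For comparison, the median difference over all genes tested was -0.04 in each comparison with PBS. All 41 genes were called higher at day 1 by limma with a Benjamini-Hochberg adjusted p under 0.05, against a background of 5.28% of 9885 genes (4.58% were called lower), and 0 of 41 were called at day 28 (0 also at an unadjusted p under 0.05), against 3.07% higher and 3.98% lower. Every NM day 1 library lay above every NM day 28 and PBS library for all 41, against 7.22% of genes tested. These shares are fixed by the rule and nothing is read from them.

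**Figure D1:**
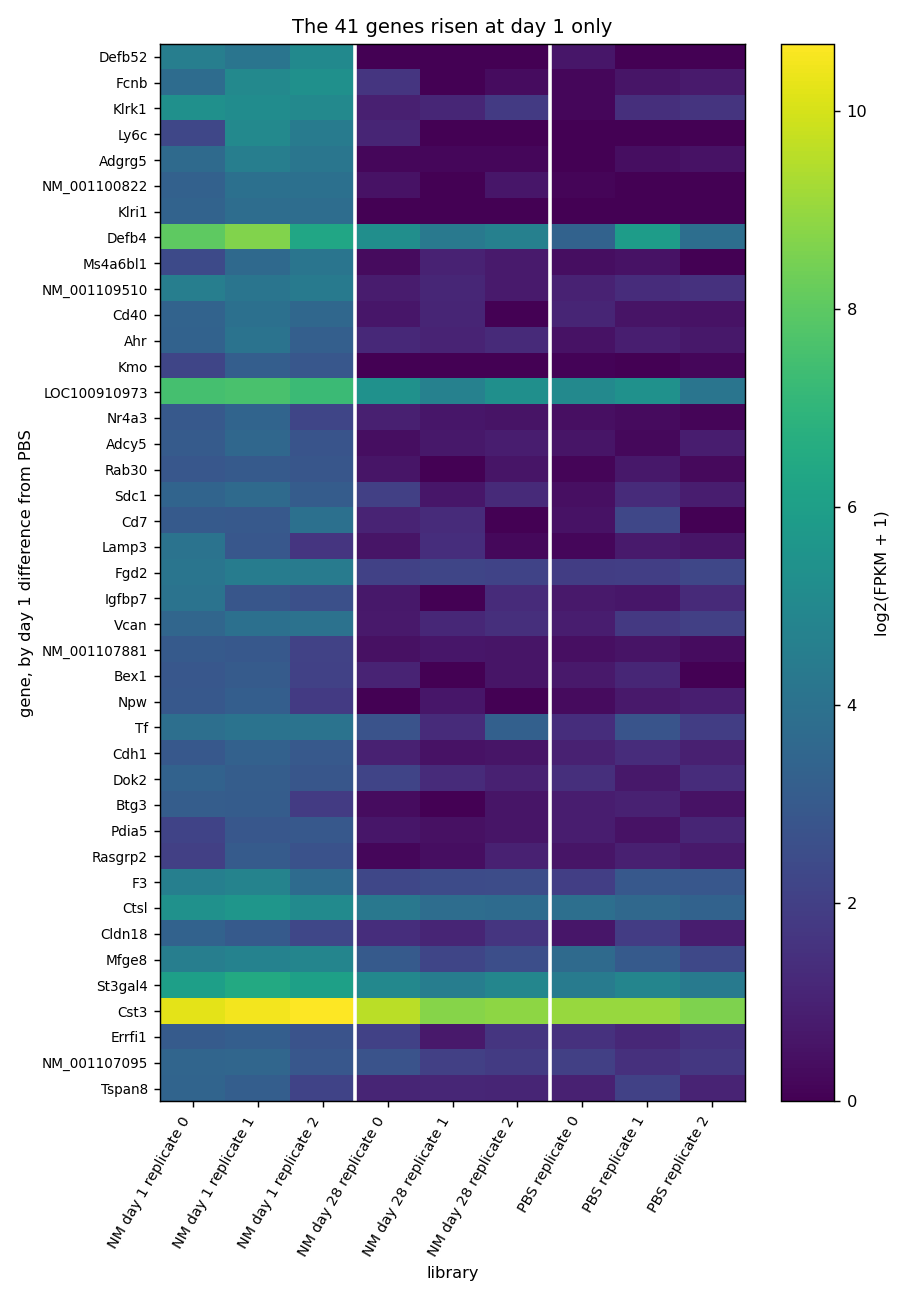
Level of each of the 41 genes as log2(FPKM + 1) (color) in the 9 libraries (columns, in groups of 3), ordered by the day 1 difference from PBS. The 3 NM day 1 columns are the brightest in every row, and Cst3, Defb4 and LOC100910973 have the highest levels.

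Most of the genes were nearly silent outside day 1. The NM day 1 mean was 10.8 FPKM in the median gene, under 10 FPKM for 20 genes and at least 100 FPKM for 3. The NM day 28 mean was under 1 FPKM for 23 genes and the PBS mean for 22. Set against its own NM day 1 mean, the median gene stood at 9.46% to 10.2% in the NM day 28 libraries and at 6.28% to 11.3% in the PBS libraries. The lowest NM day 1 library exceeded the highest of the other 6 libraries by at least 5 times in 12 genes and at least 2 times in 27, and by under 1.5 times in 5. At least 1 NM day 28 or PBS library was listed at exactly 0 for 15 genes. The NM day 28 libraries also list fewer transcript rows above 0 (11149 to 11339) than the NM day 1 (12112 to 12516) and PBS libraries (12145 to 12241). Their relative depth (1.035 to 1.125) was above that of NM day 1 replicate 0 (1). It was below that of NM day 1 replicates 1 and 2 (1.357 and 1.474) and of the PBS libraries (1.424 to 2.585). The part of depth in these row counts was not tested, and a listed 0 is a weak measurement in any library.

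**Figure D2:**
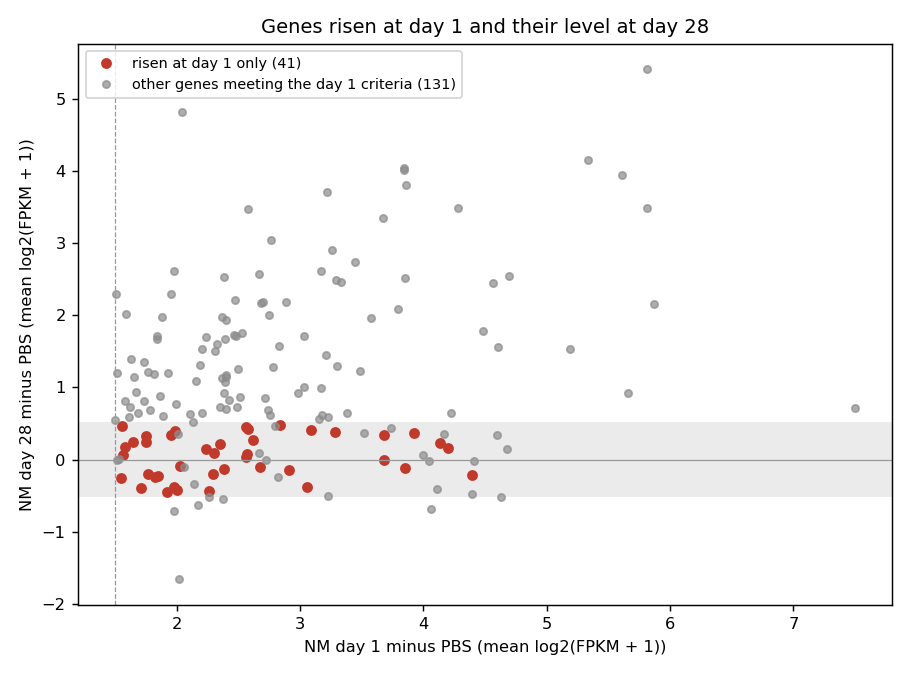
Difference of NM day 1 from PBS (x) and of NM day 28 from PBS (y), both on the mean log2(FPKM + 1) scale, for the 172 genes that met the day 1 criteria. Red points are the 41 genes, gray points the other 131, and the gray band marks 0.5 either side of PBS; gray points inside the band were left out by symbol, and both axes use the same 3 PBS libraries.

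The secreted defense proteins Defb52 and Fcnb had the 2 largest day 1 differences, 4.4 and 4.20 on the log2(FPKM + 1) scale. Beta-defensins are small cationic peptides that kill microbes and attract leukocytes. Defb52 had 23.0, 17.0 and 32.6 FPKM in the NM day 1 libraries, was listed at 0 in all 3 NM day 28 libraries, and had 0.55 FPKM in PBS replicate 0 with 0 in the other PBS libraries. Its groups lay far apart, with the lowest NM day 1 library 30.7 times the highest other library, the widest gap of the 40 genes for which that ratio exists. Defb4 was much more abundant, with 262, 401 and 78.3 FPKM at NM day 1, 38.2, 19.2 and 24.4 FPKM at NM day 28, and 9.39, 59.3 and 13.5 FPKM in PBS. Here the groups nearly touched, since NM day 1 replicate 2 stood only 1.32 times above PBS replicate 1. In the rat annotation (GRCr8) the 2 genes lie close together on chromosome 16 with 2 protein-coding genes between them, and reads of related defensins may be shared.

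Fcnb encodes ficolin B, a pattern-recognition lectin that starts the lectin pathway of complement. It had 12.6, 31.1 and 40.6 FPKM at NM day 1, 2.15, 0 and 0.29 FPKM at NM day 28, and 0.13, 0.53 and 0.70 FPKM in PBS. All 3 NM day 1 libraries were high, replicate 0 the least. Its relative Fcna (ficolin A) moved the other way, averaging 82.5 ± 13.5 FPKM at NM day 1, 71.4 ± 23.9 FPKM at NM day 28 and 155 ± 25.8 FPKM in PBS (SD, n = 3 each). The limma test of Fcna called it lower at day 1 (log2 -0.90, Benjamini-Hochberg adjusted p = 0.0375) and at day 28 (log2 -1.16, Benjamini-Hochberg adjusted p = 0.0156), and the day 1 call was lost when any NM day 1 library or PBS replicate 0 or 1 was left out and under other scalings (up to 0.168 for the limma adjusted p), while the day 28 call was lost without PBS replicate 0 or 1 (up to 0.0727). Neutrophils carry related defense genes: of the 10 neutrophil markers tested 5 were called higher and 1 lower at day 1 (the lower call was lost without NM day 1 replicate 0 or 1 or PBS replicate 0 or 1), and the list summed to 741 to 1112 FPKM at NM day 1, 605 to 1070 FPKM at NM day 28 and 304 to 484 FPKM in PBS. The part of neutrophils in the Fcnb values was not tested. In bulk samples such as these, fewer cells of a type and less RNA per cell cannot be told apart.

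Cystatin C and cathepsin L formed an inhibitor and a protease that both stood high at day 1. Cst3, a secreted inhibitor of cysteine proteases and the most abundant of the 41, had 1191, 1444 and 1634 FPKM at NM day 1, 755, 429 and 464 FPKM at NM day 28, and 526, 516 and 386 FPKM in PBS. Ctsl, a lysosomal cysteine protease, had 41.3, 47.3 and 33.6 FPKM at NM day 1, 18.5, 13 and 12.4 FPKM at NM day 28, and 14.1, 11.2 and 9.10 FPKM in PBS. For both genes NM day 28 and PBS libraries were interleaved and all NM day 1 libraries lay above them. The more abundant cathepsins Ctsb, Ctsd and Ctss were not called in either comparison with PBS, with Ctsb at 837 ± 59.8, 1109 ± 166 and 920 ± 345 FPKM, Ctsd at 3004 ± 842, 2992 ± 913 and 4474 ± 1719 FPKM, and Ctss at 609 ± 109, 435 ± 93.3 and 695 ± 222 FPKM at NM day 1, at NM day 28 and in PBS (SD, n = 3 each). Ctsk, another cysteine protease, stood highest at the later time, with 12.2 ± 4.38 FPKM at NM day 1, 36.5 ± 8.69 FPKM at NM day 28 and 9.66 ± 2.67 FPKM in PBS (SD, n = 3 each), and limma called it at day 28 (log2 1.82, Benjamini-Hochberg adjusted p = 0.00302) but not at day 1 (log2 0.29, Benjamini-Hochberg adjusted p = 0.572). Of 9 protease inhibitors tested beside Cst3, 4 were called higher and 0 lower at day 1 (median log2 difference 0.84), and 5 higher and 1 lower at day 28 (median 0.88). The day 1 count was 2 without NM day 1 replicate 0 or without PBS replicate 0 or 2; the day 28 count was 3 without NM day 28 replicate 2 or PBS replicate 0, and 2 without NM day 28 replicate 0 or PBS replicate 1, and the lower call was lost without PBS replicate 1 or 2. Unlike Cst3, Slpi (secretory leukocyte protease inhibitor) remained above PBS, at 101 ± 17.7 FPKM at NM day 1, 22.4 ± 12.7 FPKM at NM day 28 and 0.818 ± 0.281 FPKM in PBS (SD, n = 3 each; limma at day 28 against PBS log2 3.49, Benjamini-Hochberg adjusted p = 0.000401). The relative Cst7 (cystatin F) averaged 57.0 ± 4.74, 12.0 ± 5.95 and 4.29 ± 1.44 FPKM in the same order of groups (NM day 1, NM day 28, PBS).

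Transferrin, the iron carrier of plasma, completed the secreted proteins. Tf had 14.1, 15.8 and 15.7 FPKM at NM day 1, 5.62, 1.45 and 8.56 FPKM at NM day 28, and 1.63, 5.81 and 2.85 FPKM in PBS. The NM day 1 libraries were tight (highest over lowest 1.12), and the other 6 were scattered. Tfrc, the transferrin receptor, was called higher at day 1 by limma (17.9 ± 3.62 FPKM at NM day 1, 11.1 ± 2.13 FPKM at NM day 28 and 7.82 ± 1.27 FPKM in PBS, SD, n = 3 each; log2 1.09, Benjamini-Hochberg adjusted p = 0.00915), and was not called at day 28 (log2 0.45, Benjamini-Hochberg adjusted p = 0.229).

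**Figure D3:**
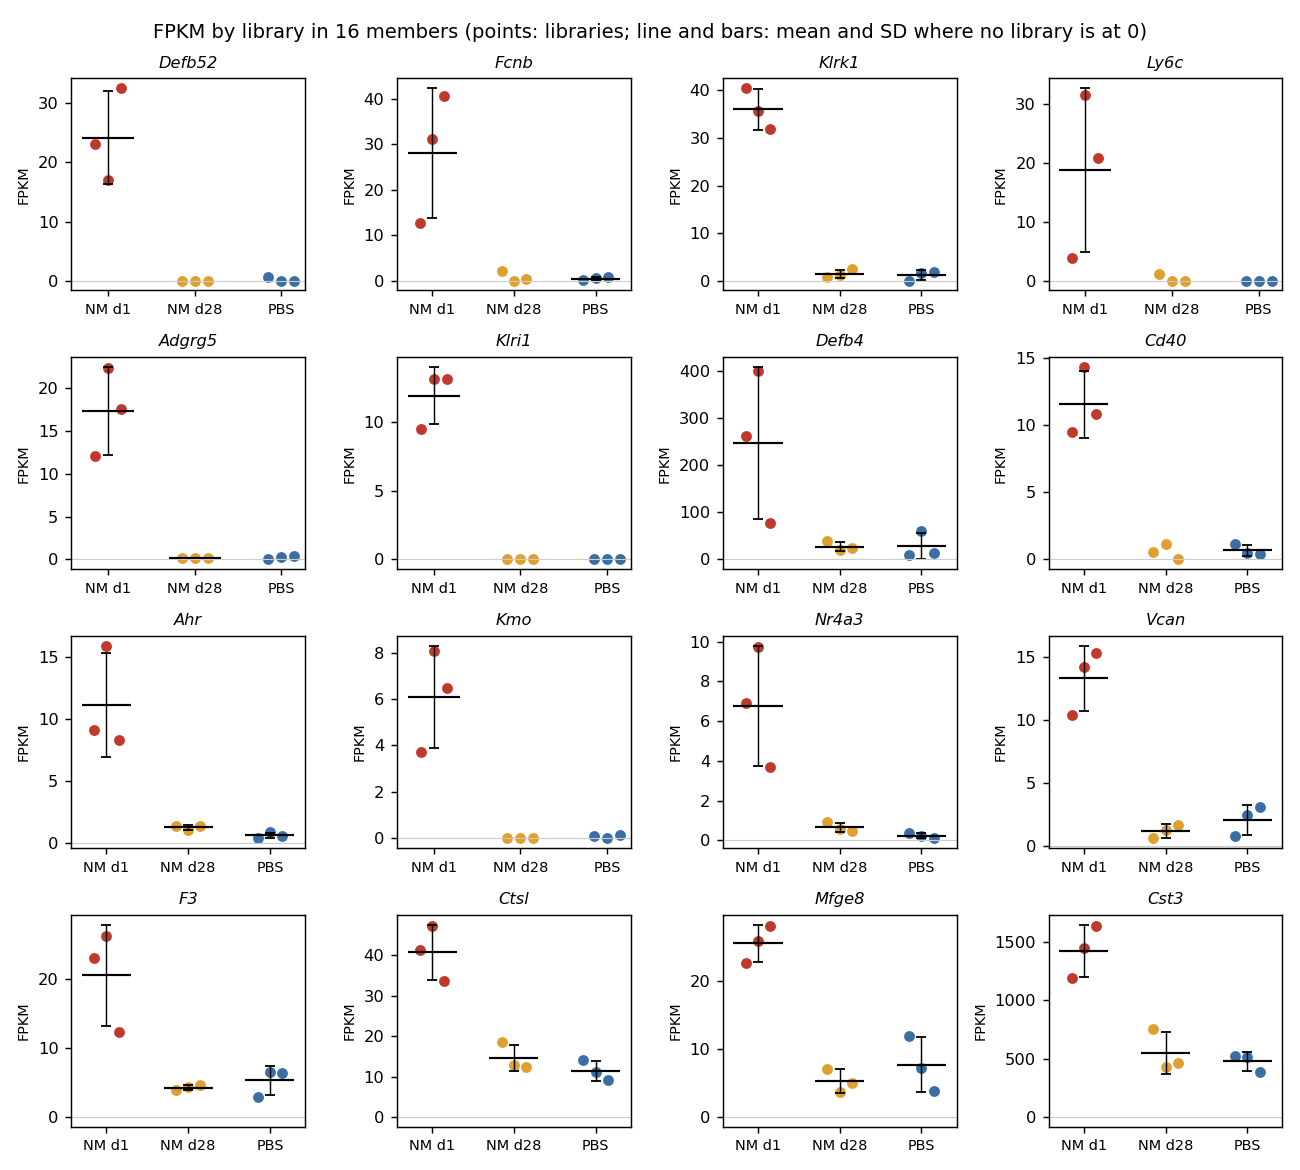
FPKM of 16 of the 41 genes in each library (points), with a line and bars for the mean and SD of a group of 3 where no library is listed at 0. The NM day 1 points (left) lie above the NM day 28 (middle) and PBS points (right) in each panel, most narrowly for Defb4.

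Receptors best known from natural killer (NK) cells formed a second group. Klrk1 encodes NKG2D, an activating receptor for stress-induced ligands on injured cells, and Klri1 encodes another killer cell lectin-like receptor described in rodents. Klrk1 had 40.4, 35.6 and 32.0 FPKM at NM day 1, 0.89, 1.23 and 2.56 FPKM at NM day 28, and 0.12, 1.72 and 2.02 FPKM in PBS. Klri1 had 9.52, 13.1 and 13.1 FPKM at NM day 1 and was listed at 0 in all 6 other libraries, so no fold is given. Both groups of day 1 values were tight, with the highest library 1.26 times the lowest for Klrk1 and 1.38 times for Klri1. Both genes lie on chromosome 4 of GRCr8 with 3 protein-coding genes between them, and reads of related Klr genes may be shared.

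Other NK markers had higher summed levels at NM day 1 than in PBS, and so did a T cell list that includes Il7r. Of the 11 NK markers on the list 10 were measured and 3 tested. Beside Klrk1, 0 of 2 were called at day 1, and with no filter on low values 3 of the others were (Klrb1a, Ncr1 and Gzmk). Klrb1a had the largest difference of the 3 (log2 1.18, limma with no filter, Benjamini-Hochberg adjusted p = 0.00272). At day 28, 1 of the 2 was called higher (0 with a filter of 5 FPKM or without PBS replicate 1, and 2 without NM day 28 replicate 2). With no filter, limma called Ncr1 higher at day 28 (log2 1.37, Benjamini-Hochberg adjusted p = 0.0053). Without Klrk1 the list summed to 9.1 to 11.4 FPKM at NM day 1, 6.5 to 19.5 FPKM at NM day 28 and 3.9 to 6.1 FPKM in PBS. On this list, Ncr1 had 0.58, 1.06 and 0.39 FPKM, Klrd1 1.08, 0.59 and 0.73 FPKM, and Prf1 0, 0.26 and 0.24 FPKM in the NM day 1 libraries, a small part of its sums there. The T cell list summed to 42.6 to 50.4 FPKM at NM day 1, 25.6 to 31.2 FPKM at NM day 28 and 16.9 to 28.3 FPKM in PBS, with Cd3e at 0, 0.54 and 0 FPKM in the NM day 1 libraries. Of 7 T cell markers tested 1, Il7r, was called higher at day 1, and 2 were with no filter, with the replicate number as a block or without NM day 28 replicate 1. Il7r, the interleukin-7 receptor, met the numeric criteria of the set, was left out by symbol and made up a large part of the T cell sums at NM day 1. It had 27.7, 22.8 and 23.2 FPKM at NM day 1, 10.5, 6.60 and 7.03 FPKM at NM day 28, and 12.5, 6.33 and 6.16 FPKM in PBS. Cd7, a surface protein of T and NK cells and of early myeloid cells, had 7.08, 6.94 and 14.4 FPKM at NM day 1, 1.09, 1.5 and 0 FPKM at NM day 28, and 0.46, 3.79 and 0 FPKM in PBS. The part of NK and T cells in the values of Klrk1, Klri1 and Cd7 was not tested. The adaptor Hcst (DAP10), through which NKG2D signals, averaged 47.4 ± 4.04 FPKM at NM day 1, 105 ± 31.9 FPKM at NM day 28 and 80.8 ± 23.4 FPKM in PBS, and the adaptor Tyrobp (DAP12) averaged 3045 ± 312, 5112 ± 617 and 4934 ± 732 FPKM in these groups (SD, n = 3 each). Neither was called against PBS at day 1 (limma, Benjamini-Hochberg adjusted p = 0.101 for Hcst and 0.083 for Tyrobp).

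**Figure D4:**
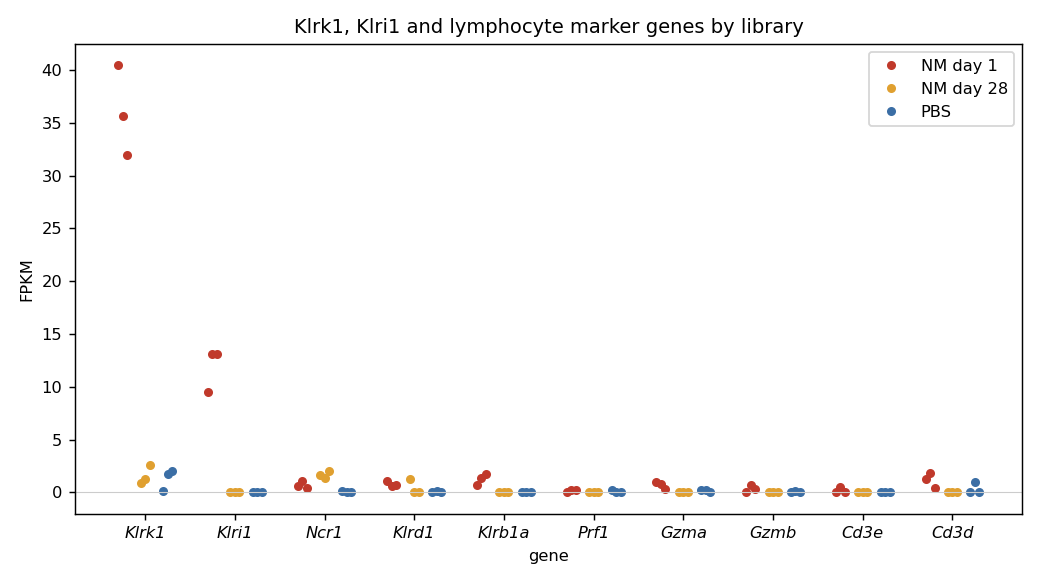
FPKM of Klrk1, Klri1 and 8 NK and T cell marker genes in each library (NM day 1, NM day 28 and PBS from left to right for each gene). Klrk1 lies between 32.0 and 40.4 FPKM in the NM day 1 libraries, while Ncr1, Klrd1, Prf1 and Cd3e stay near 1 FPKM or lower there. Other NK markers hold more: without Klrk1 the NK list sums to 9.1 to 11.4 FPKM at NM day 1. The sums are 6.5 to 19.5 FPKM at NM day 28 and 3.9 to 6.1 FPKM in PBS.

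Cd40, the co-stimulatory receptor by which macrophages and dendritic cells receive T cell help, had 9.47, 14.4 and 10.8 FPKM at NM day 1, 0.55, 1.14 and 0 FPKM at NM day 28, and 1.14, 0.48 and 0.42 FPKM in PBS. Its ligand gene Cd40lg was listed at 0 in every library, which can also be a failed estimate. Of 11 co-stimulation and checkpoint genes tested beside Cd40, 4 were called higher and 0 lower at day 1 (median log2 difference 0.56), and 0 higher and 1 lower at day 28 (median 0.19). The day 1 count was 1 without NM day 1 replicate 0 or PBS replicate 0 or 1, and 2 without NM day 1 replicate 1 or PBS replicate 2, and the lower call at day 28 was lost without PBS replicate 1. Havcr2, which encodes the checkpoint receptor TIM-3, was among the 4, with 8.68 ± 1.27 FPKM at NM day 1, 1.49 ± 1.22 FPKM at NM day 28 and 0.216 ± 0.0379 FPKM in PBS (SD, n = 3 each). Of 4 dendritic cell markers tested, 3 were called higher at day 1. The list summed to 73.2 to 108 FPKM at NM day 1, 18.4 to 42.2 FPKM at NM day 28 and 48.0 to 68.5 FPKM in PBS. Ccl22, on this list, met the numeric criteria of the set and was left out by symbol. It made up much of the NM day 1 sums, with 38.8, 50.6 and 39.0 FPKM there and 0.23, 1.52 and 0.85 FPKM in PBS. The part of dendritic cells in the Cd40 values was not tested.

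Ly6c and Vcan belong to the genes that mark monocytes newly arrived in tissue. Ly6c, a surface antigen of inflammatory monocytes, had 3.90, 31.6 and 20.8 FPKM at NM day 1, 1.16, 0 and 0 FPKM at NM day 28, and was listed at 0 in all PBS libraries. It varied most of the 41 within day 1, with replicate 1 at 8.10 times replicate 0, and related Ly6 genes may share its reads. Vcan, which encodes the large matrix proteoglycan versican, had 10.4, 14.2 and 15.4 FPKM at NM day 1, 0.64, 1.3 and 1.69 FPKM at NM day 28, and 0.80, 2.46 and 3.11 FPKM in PBS. Most of the Vcan signal lay in the transcript NM_001170558, with a mean of 8.91 FPKM at NM day 1, 0.81 FPKM at NM day 28 and 1.54 FPKM in PBS, though the split of shared reads among transcripts is an estimate. Of 10 monocyte markers tested beside Ly6c and Vcan, 6 were called higher at day 1 and 4 at day 28, with 0 lower. Ccr2, on this list, met the numeric criteria of the set and was left out by symbol, so the rule fixed its day 1 rise. Without the 2 genes the list summed to 8490 to 13033 FPKM at NM day 1, 12482 to 14686 FPKM at NM day 28 and 12548 to 24167 FPKM in PBS, sums that Lyz2 dominates (at least 7069 FPKM in every library), a gene that resident macrophages express too. The part of arriving monocytes in the 2 genes was not tested.

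Of 10 matrix genes tested beside Vcan, 4 were called higher and 0 lower at day 1 (median log2 difference 0.88), and 3 higher and 0 lower at day 28 (median 0.60; 5 without NM day 28 replicate 1). Fn1 (fibronectin) did not follow Vcan, with 59.6 ± 17.6 FPKM at NM day 1, 65.4 ± 11.8 FPKM at NM day 28 and 10.7 ± 3.79 FPKM in PBS (SD, n = 3 each), and limma called it higher at day 28 (log2 2.54, Benjamini-Hochberg adjusted p = 0.000362). Tgfbi, a matrix protein induced by TGF-beta, averaged 45.4 ± 7.75, 2.72 ± 1.05 and 0.259 ± 0.0470 FPKM in these groups and was still called higher than PBS at day 28 by limma (log2 1.53, Benjamini-Hochberg adjusted p = 0.00326; 0.0517 with a pseudocount of 5).

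Surface and signaling proteins of leukocytes made up much of the remainder. Adgrg5, an adhesion G protein-coupled receptor, had 12.1, 22.4 and 17.5 FPKM at NM day 1, 0.14, 0.15 and 0.13 FPKM at NM day 28, and 0, 0.32 and 0.42 FPKM in PBS, a gap of 28.5 times between the lowest NM day 1 library and the highest other library. Ms4a6bl1, of the membrane-spanning MS4A family, had 4.30, 11.4 and 16.6 FPKM at NM day 1, 0.25, 1.03 and 0.71 FPKM at NM day 28, and 0.31, 0.43 and 0 FPKM in PBS. Both were separated from the other groups in every library, and both were lowest in NM day 1 replicate 0. Fgd2, an exchange factor for the GTPase Cdc42, was the steadiest of the more abundant ones, with 17.0, 21.1 and 20.8 FPKM at NM day 1, 3.22, 3.68 and 3.39 FPKM at NM day 28, and 2.81, 2.97 and 3.80 FPKM in PBS. The adaptor Dok2, which restrains tyrosine kinase signaling, and Rasgrp2, an exchange factor for Rap GTPases, had smaller differences of 1.95 and 1.82 on the log2(FPKM + 1) scale.

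Adcy5 encodes an adenylyl cyclase, an enzyme that makes cyclic AMP. It had 7.32, 10.8 and 5.86 FPKM at NM day 1, 0.32, 0.60 and 0.79 FPKM at NM day 28, and 0.50, 0.18 and 0.82 FPKM in PBS. Its close relative Adcy6 showed like values of 3.66 ± 1.36 FPKM at NM day 1, 0.416 ± 0.230 FPKM at NM day 28 and 0.489 ± 0.139 FPKM in PBS (SD, n = 3 each), and limma called it higher at day 1 (log2 1.61, Benjamini-Hochberg adjusted p = 0.00557) but not at day 28 (log2 -0.08, Benjamini-Hochberg adjusted p = 0.904). Adcy6 stayed out of the set because its NM day 1 mean was under 5 FPKM. On GRCr8 Adcy5 lies near the member Pdia5, a protein disulfide isomerase of the endoplasmic reticulum, with 1 protein-coding gene between them on chromosome 11. Pdia5 had 3.44, 6.55 and 6.60 FPKM at NM day 1, 0.57, 0.39 and 0.54 FPKM at NM day 28, and 0.78, 0.43 and 1.14 FPKM in PBS.

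A receptor, an orphan nuclear factor and an enzyme of tryptophan breakdown formed the regulatory and metabolic group. Ahr encodes the aryl hydrocarbon receptor, a transcription factor switched on by small aromatic ligands that include tryptophan metabolites. It had 9.14, 15.9 and 8.32 FPKM at NM day 1, 1.36, 1.06 and 1.43 FPKM at NM day 28, and 0.42, 0.89 and 0.62 FPKM in PBS. With a day 28 difference of 0.48 it was the closest to the upper limit of the day 28 criterion, and its NM day 28 and PBS libraries did not overlap, which held for 2 of 41 genes against a background of 27.1% of genes tested. The day 28 criterion lowers that share by itself, so nothing is read from it. Its partner Arnt averaged 14.6 ± 2.92 FPKM at NM day 1, 16.6 ± 3.03 FPKM at NM day 28 and 15.2 ± 4.38 FPKM in PBS (SD, n = 3 each) and was not called. The classical Ahr targets Cyp1a1 and Cyp1b1 were listed at 0 in every library, which can also be a failed estimate.

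Kmo, kynurenine 3-monooxygenase, acts midway in the breakdown of tryptophan. It had 3.74, 8.08 and 6.48 FPKM at NM day 1, was listed at 0 in all NM day 28 libraries, and had 0.08, 0 and 0.15 FPKM in PBS. The first enzyme of the pathway, Ido1, was listed at 0 in every library, which can also be a failed estimate. Haao, which acts after Kmo, reached 0.99 FPKM at most. Of 12 genes tested beside Kmo for tryptophan, arginine and itaconate metabolism, 2 were called higher at day 1 (median log2 difference 0.49; 5 under quantile normalization and 1 under a filter of 5 FPKM) and 2 at day 28 (median 0.20; 1 without NM day 28 replicate 2 or PBS replicate 1), with 0 lower. The 2 genes at day 1 were Nos2 (inducible nitric oxide synthase), with 13 ± 7.58 FPKM at NM day 1, 8.30 ± 3.83 FPKM at NM day 28 and 1.01 ± 0.685 FPKM in PBS, and Acod1, which makes itaconate, with 5.66, 3.80 and 2.85 FPKM at NM day 1, 3.32, 2.19 and 3.02 FPKM at NM day 28, and 0, 0 and 0.11 FPKM in PBS.

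Nr4a3 is an orphan nuclear receptor of the immediate early class. It had 6.89, 9.73 and 3.71 FPKM at NM day 1, 0.92, 0.59 and 0.47 FPKM at NM day 28, and 0.35, 0.24 and 0.11 FPKM in PBS, and it was the other of the 2 genes whose NM day 28 and PBS libraries did not overlap. Of 21 early response factors tested beside Nr4a3, 5 were called higher and 1 lower at day 1 (median log2 difference 0.38), and 2 higher and 0 lower at day 28 (median 0.13; 1 without NM day 28 replicate 2). The day 1 count was 3 higher without NM day 1 replicate 0 or 1 or PBS replicate 1 or 2. The lower call at day 1 was lost under both other scalings and without NM day 1 replicate 0 or 1, NM day 28 replicate 0 or PBS replicate 0 or 1. The relative Nr4a2 was called higher at day 1 by limma (4.39 ± 0.675 FPKM at NM day 1, 1.61 ± 0.357 FPKM at NM day 28 and 0.984 ± 0.297 FPKM in PBS, SD, n = 3 each; log2 1.45, Benjamini-Hochberg adjusted p = 0.0041). Btg3, an antiproliferative factor, and Errfi1, a feedback inhibitor of the epidermal growth factor receptor, were the remaining regulators, with day 1 differences of 1.92 and 1.56.

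The long noncoding RNA LOC100910973 was the third most abundant of the set. It had 185, 195 and 156 FPKM at NM day 1, 40.9, 25.1 and 38.7 FPKM at NM day 28, and 31.7, 40.8 and 17.0 FPKM in PBS. The NM day 1 libraries all lay at least 3.81 times above the highest other library, and nearly all signal came from the transcript NR_102352. Nothing further is annotated for it in the tables used here.

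Promoters were searched for short motifs of factors that act in acute inflammation. RefSeq promoters (GRCr8, 250 bases before to 50 after a start) were found for 26 of the 41 genes, 31 promoters in all. The interferon-stimulated response element (ISRE), searched on both strands as GAAA, any 2 bases and GAAA again, was present in 3 of these 31 (9.68%), against 3.11% of 8058 promoters of genes tested and 3.92% of all 33469 promoters. Klrk1, Kmo and LOC100910973 held it, at 106, 217 and 50 bases before the start, and they are shown because each had a large day 1 difference. Capitals mark the match.
Klrk1: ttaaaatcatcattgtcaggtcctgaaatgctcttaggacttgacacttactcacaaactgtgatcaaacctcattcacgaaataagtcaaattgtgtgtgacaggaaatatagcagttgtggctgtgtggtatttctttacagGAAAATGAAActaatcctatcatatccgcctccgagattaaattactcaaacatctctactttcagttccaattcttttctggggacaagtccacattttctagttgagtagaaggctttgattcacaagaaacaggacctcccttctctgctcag
Kmo: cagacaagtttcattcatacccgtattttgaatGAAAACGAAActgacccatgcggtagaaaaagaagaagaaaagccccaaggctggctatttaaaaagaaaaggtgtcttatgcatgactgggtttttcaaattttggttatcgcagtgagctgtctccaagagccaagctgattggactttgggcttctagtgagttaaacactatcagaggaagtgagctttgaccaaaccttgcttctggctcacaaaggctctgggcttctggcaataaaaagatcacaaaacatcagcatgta
LOC100910973: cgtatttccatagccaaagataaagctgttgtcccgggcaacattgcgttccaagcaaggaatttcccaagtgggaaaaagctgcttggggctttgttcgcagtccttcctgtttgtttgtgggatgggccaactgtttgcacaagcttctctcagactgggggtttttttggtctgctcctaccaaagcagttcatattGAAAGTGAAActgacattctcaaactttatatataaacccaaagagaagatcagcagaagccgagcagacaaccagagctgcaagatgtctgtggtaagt
These are chr4:164778333-164778632 on the minus strand, chr13:90089271-90089570 on the plus strand and chr1:217133198-217133497 on the minus strand. LOC100910973 has another promoter in the table without the match, and which start its transcripts use was not measured.

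A match of these letters is not evidence of binding. The AP-1 motif TGANTCA was in 3 of 31 promoters (9.68%; Defb52, Klrk1 and St3gal4), against 5.29% of promoters of genes tested and 7.33% of all promoters, and the NF-kappaB motif, searched as GGGA, any 2 bases and TTCC, in 1 (3.23%; LOC100910973), against 1.54% and 1.3%. CCAAT was in 16 (51.6%), against 38.2% and 37.5%. TATAAA was in 4 (12.9%), a share above the 7.14% of genes tested and below the 14.2% of all promoters. The cyclic AMP motif TGACGTCA and the STAT motif TTCCNGGAA were in 0 of 31; among promoters of genes tested the shares were 3.36% and 1.43%, and among all promoters 1.83% and 1.27%. The counts are small, both strands were searched for each motif, and other sequence around the genes was not searched. Among 34 interferon-inducible genes tested, 9 were called higher and 0 lower at day 1 (median log2 difference 0.38; 5 higher without PBS replicate 1), and 3 higher and 3 lower at day 28 (median -0.19). The day 28 count was 1 higher without NM day 28 replicate 0 or 2 or PBS replicate 1, 1 lower without PBS replicate 0 or 1, and 5 lower without PBS replicate 2. Mx2, Isg15, Irf7 and Cxcl10, which are not on this list, met the numeric criteria of the set and were left out by symbol. The rule fixed their day 1 rise (3.52, 2.06, 2.01 and 2.14 on the log2(FPKM + 1) scale). Rsad2, an interferon-induced antiviral enzyme, resembled the set, with 4.16 ± 0.206 FPKM at NM day 1, 0.382 ± 0.309 FPKM at NM day 28 and 0.0962 ± 0.0472 FPKM in PBS (SD, n = 3 each), and stayed out because its NM day 1 mean was under 5 FPKM.

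Tissue factor, the trigger of clotting, and a clearance protein were among the more abundant genes. F3 (tissue factor) had 23.1, 26.3 and 12.3 FPKM at NM day 1, 3.90, 4.42 and 4.60 FPKM at NM day 28, and 2.93, 6.62 and 6.44 FPKM in PBS. Of 10 clotting and fibrinolysis genes tested beside F3, 1 was called higher and 0 lower at day 1 (median log2 difference 0.13). That call was lost when any NM day 1 library, PBS replicate 0 or 2 or NM day 28 replicate 2 was left out, and with a pseudocount of 0.1, a filter of 5 FPKM, quantile normalization (which called 1 lower), the replicate number as a block or only the 6 libraries compared. At day 28, 1 was called higher and 1 lower (median -0.44), the higher call lost without NM day 28 replicate 0 or 1 or PBS replicate 0 or 1, and the lower call without NM day 1 replicate 2, NM day 28 replicate 2 or any PBS library. At day 28 the replicate number as a block gave 3 lower, and 0 were lower with a pseudocount of 5, no filter, either other scaling or only the 6 libraries compared, while no filter also gave 0 higher. Mfge8, which bridges phosphatidylserine on dying cells to integrins of the phagocyte, had 22.6, 25.8 and 28.1 FPKM at NM day 1, 7.14, 3.69 and 4.95 FPKM at NM day 28, and 12.0, 7.21 and 3.91 FPKM in PBS. The transcript NM_012811 carried most of the NM day 1 signal of Mfge8, 18.2 FPKM on average, against 7.28 FPKM for NM_001040186. St3gal4, a sialyltransferase that helps build selectin ligands, had 65.1, 87.8 and 66.5 FPKM at NM day 1, 30.5, 22.3 and 28.8 FPKM at NM day 28, and 20.6, 27.6 and 20.1 FPKM in PBS. For the 3 genes the NM day 1 libraries stood clear of an interleaved remainder.

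Several genes of the set are also typical of alveolar epithelium. Lamp3 marks the lamellar bodies of type II cells and mature dendritic cells, Cldn18 is a tight junction protein and Cdh1 is E-cadherin. Lamp3 had 15.9, 6.37 and 2.13 FPKM at NM day 1, 0.52, 1.60 and 0.16 FPKM at NM day 28, and 0.14, 0.69 and 0.52 FPKM in PBS. Cldn18 had 9.21, 7.20 and 3.83 FPKM at NM day 1, 1.65, 1.14 and 2.11 FPKM at NM day 28, and 0.57, 2.71 and 0.83 FPKM in PBS. Both were highest in NM day 1 replicate 0 and lowest in replicate 2, whereas Cdh1 had 6.66, 9.06 and 6.85 FPKM at NM day 1, 0.99, 0.44 and 0.54 FPKM at NM day 28, and 1.00, 1.59 and 0.91 FPKM in PBS.

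Alveolar epithelial markers also stood higher at day 1. Of 14 such markers tested beside Lamp3, Cldn18 and Cdh1, 8 were called higher and 0 lower at day 1, and 1 higher and 3 lower at day 28. Sftpb and Sftpa1, on this list, met the numeric criteria of the set and were left out by symbol, so the rule fixed their day 1 rise. The day 1 count was 5 without NM day 1 replicate 0 or 1 or PBS replicate 0. The higher call at day 28 was lost without NM day 1 replicate 2, NM day 28 replicate 0 or 2, or PBS replicate 0 or 2, and became 2 without NM day 28 replicate 1. Without the members the list summed to 3102, 1468 and 1045 FPKM in NM day 1 replicates 0, 1 and 2, against 284 to 396 FPKM at NM day 28 and 248 to 422 FPKM in PBS. Most of it was Sftpc, the surfactant protein of type II cells, with 2231, 865 and 582 FPKM at NM day 1, 31.7, 27.4 and 26.3 FPKM at NM day 28, and 28.2, 79.1 and 30.9 FPKM in PBS, while Sftpd was listed at 0 in every library. Airway epithelial markers did not: of 6 tested, 0 were called higher and 1 lower at day 1 (median log2 difference -0.80; 0 without NM day 1 replicate 0 and 3 without PBS replicate 0), and 0 higher and 3 lower at day 28 (median -1.86; 1 without PBS replicate 1 or 2 and 5 without PBS replicate 0). That list summed to 1535 to 3638 FPKM at NM day 1, 907 to 1449.8 FPKM at NM day 28 and 1545 to 8471 FPKM in PBS. The part of epithelial cells or their RNA in the values of Lamp3, Cldn18, Cdh1 or any other member was not tested. Sdc1, a membrane protein that epithelia also make, had 9.79, 12.1 and 7.58 FPKM at NM day 1. For Sdc1 the highest NM day 28 library had 3.05 FPKM and the highest PBS library 1.45 FPKM. Sdc4, another syndecan, was called higher at day 1 by limma, with 44.7 ± 14.2 FPKM at NM day 1, 12.4 ± 3.62 FPKM at NM day 28 and 6.95 ± 1.26 FPKM in PBS (SD, n = 3 each; log2 2.49, Benjamini-Hochberg adjusted p = 0.000173).

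The NM day 1 libraries differed among themselves in which genes they held most. The highest NM day 1 library exceeded the lowest by 1.12 to 8.10 times, with a median of 1.85. Replicate 1 was the highest for 24 genes (58.5%), against 36.0% of all genes tested and 42.7% of the other 131 genes that met the day 1 criteria. Klrk1, Lamp3, Igfbp7, NM_001107881, Dok2, Btg3, Cldn18 and Tspan8 (19.5%) decreased in the order replicate 0, 1, 2, the order of the summed epithelial list, against 15.1% of all genes tested and 34.4% of the other 131. Fcnb, Ms4a6bl1, Vcan, Pdia5, Mfge8 and Cst3 (14.6%) had the opposite order, against 14.2% and 12.2%. Igfbp7, which binds insulin-like growth factors, was the most uneven after Lamp3 in the first of these orders, with 15.6, 6.23 and 5.06 FPKM at NM day 1, 0.63, 0 and 1.5 FPKM at NM day 28, and 0.66, 0.54 and 1.43 FPKM in PBS.

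**Figure D5:**
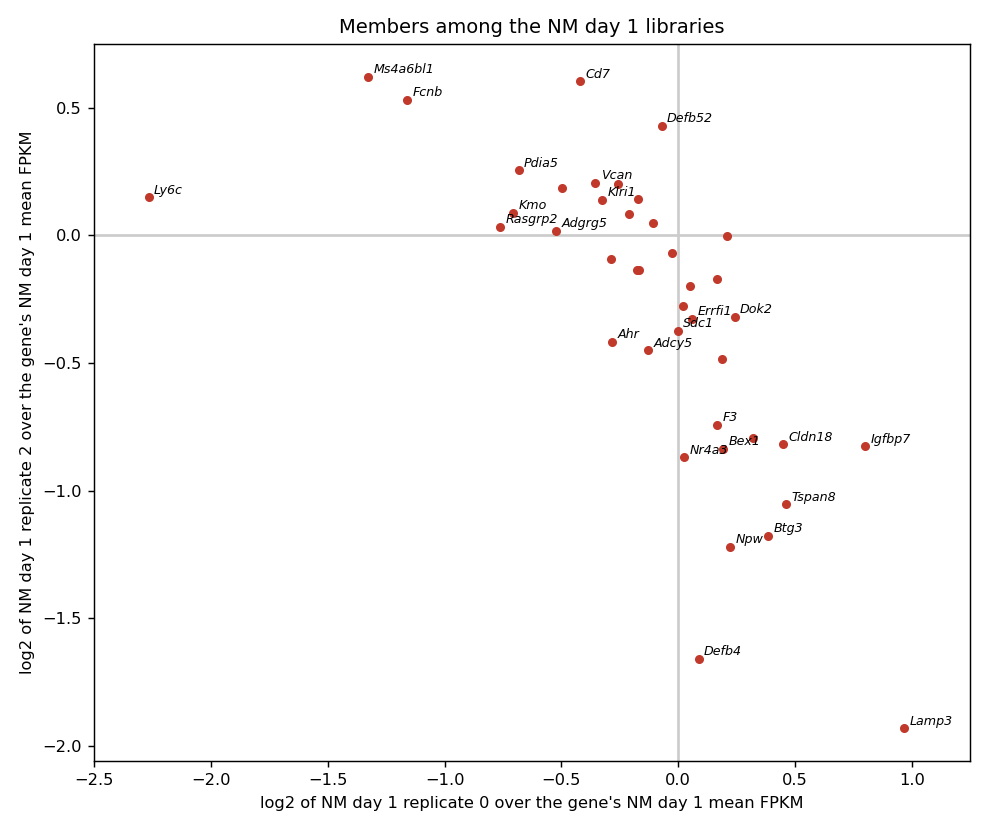
Level of each of the 41 genes in NM day 1 replicate 0 (x) and replicate 2 (y) relative to its NM day 1 mean FPKM, on a log2 scale. Lamp3, Igfbp7, Tspan8 and Cldn18 lie toward the lower right, Ly6c, Ms4a6bl1 and Fcnb toward the upper left.

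Other members had low levels and few known roles in macrophages. Rab30, a small GTPase of the Golgi, was among the most even, with 6.49, 7.05 and 6.31 FPKM at NM day 1, 0.52, 0 and 0.50 FPKM at NM day 28, and 0.11, 0.60 and 0.20 FPKM in PBS. Bex1, an adaptor best known in neurons, and Npw, the neuropeptide W precursor, had NM day 1 means of 5.61 and 5.75 FPKM. There were 4 members without a symbol in the gene table. Of these NM_001100822 had 8.87, 14.5 and 14.2 FPKM at NM day 1, 0.43, 0 and 0.57 FPKM at NM day 28, and 0.11, 0 and 0 FPKM in PBS. NM_001109510 had 22.6, 16.6 and 19.5 FPKM at NM day 1, 0.77, 1.19 and 0.73 FPKM at NM day 28, and 1.03, 1.54 and 1.88 FPKM in PBS. Both were separated widely in every library.

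Values ran on across the threshold. Just inside the day 1 limit lay Tspan8 (1.55), NM_001107095 (1.56) and Errfi1 (1.56), and just outside it lay Rbm3 (1.47), Tnni2 (1.46) and P2ry6 (1.46), which met the other criteria. NM_001107095 had 10.3, 10.4 and 6.47 FPKM at NM day 1, 5.72, 3.07 and 2.62 FPKM at NM day 28, and 3.03, 1.83 and 2.31 FPKM in PBS. Tspan8 had 9.87, 8.19 and 3.45 FPKM at NM day 1, 1.18, 1.22 and 1.13 FPKM at NM day 28, and 0.98, 3.24 and 1.12 FPKM in PBS. Errfi1 had 7.27, 8.09 and 5.56 FPKM at NM day 1, 3.19, 0.66 and 2.12 FPKM at NM day 28, and 1.89, 1.28 and 1.92 FPKM in PBS. The lowest NM day 1 library stood 1.07 times above the highest other library for Tspan8, 1.13 times for NM_001107095 and 1.74 times for Errfi1. Outside the limit, Tnni2 had 5.54, 9.96 and 7.06 FPKM at NM day 1, 5.08, 1.17 and 2.71 FPKM at NM day 28, and 4.04, 1.97 and 0.86 FPKM in PBS. P2ry6, a receptor for extracellular nucleotides, had 20.9, 20.4 and 16.7 FPKM at NM day 1, 9.48, 8.46 and 4.08 FPKM at NM day 28, and 4.95, 8.14 and 6.35 FPKM in PBS. Rbm3, a cold-inducible RNA-binding protein, was more abundant than nearly all members, with 274, 284 and 211 FPKM at NM day 1, 114, 108 and 122 FPKM at NM day 28, and 105, 92.0 and 77.6 FPKM in PBS.

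The label of the cells held for most of its markers. Resident alveolar macrophage genes such as Pparg (105 to 140.5 FPKM at NM day 1, 178 to 193 FPKM at NM day 28 and 175 to 180 FPKM in PBS) and Mrc1 (284 to 364, 201 to 283 and 347 to 419 FPKM in these groups) were abundant in every library, while Marco and Fabp1 were listed at 0 in all 9. Of 10 such markers tested, 2 were called higher and 2 lower in each comparison with PBS. Depth relative to NM day 1 replicate 0, read from the lowest FPKM steps, was 1 to 1.47 for NM day 1, 1.04 to 1.12 for NM day 28 and 1.42 to 2.58 for PBS, and the absolute depth is unknown.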

How the data were processed

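The authors deposited FPKM per RefSeq transcript in 9 libraries (18197 transcript rows), made with TopHat and Cuffdiff on the rat build rn4, per the submitters' processing notes. Tool versions, the annotation, the strand of the libraries and how multiply mapped reads were handled are not given in the sources used here. Per the labels' protocols, libraries were made with a TruSeq kit and read as 75-base paired ends. A RefSeq gene table (GRCr8) gave symbols to 17189 transcript rows (94.5%), and FPKM were summed per symbol into 17109 genes; no count model was used, since the files hold no counts. Where near-identical or overlapping genes share reads, values are uncertain.

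All genes with at least 1 FPKM in at least 3 libraries (9885) were compared on the log2(FPKM + 1) scale in R 4.3.3 with limma 3.58.1 (trended eBayes), using 3 group means, a spread common to the 9 libraries and Benjamini-Hochberg adjustment over all genes of a comparison at 0.05. The pseudocount of 1 understates changes of low genes. Differences are on this scale, and SD and SE are over n = 3. Scripts were tested on simulated data. The absolute depth is unknown, and relative depth was read from the lowest FPKM steps. No 2 libraries of the same group shared an equal value above 0 in any transcript row. Replicate numbers were not treated as pairs in the main fit.

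The 41 genes and the gene lists were chosen with earlier results of these data known. Described with every library's value were the 10 largest day 1 differences, the 10 highest NM day 1 means, up to 4 list members per list and 3 genes on each side of the threshold. Counts of the gene lists leave out the members, a choice made after seeing the data. They keep genes that met the numeric criteria of the set and were left out by symbol. Genes outside the set other than those near the threshold, and some further members, were chosen after their values were seen. Alternatives were other limits of the rule, each library left out, median-of-ratios or quantile scaling, pseudocounts of 5 and 0.1, a filter of 5 FPKM or none, transcripts taken singly, the replicate number as a block and fits to the 6 libraries compared. Python 3.11.15 (matplotlib 3.10.9, pandas 2.3.3, numpy 2.4.6) made tables and figures.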

Additional observations from a re-analysis of the deposited data

Results flagged for a closer look

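For 10 named genes outside the set, NM day 28 and NM day 1 differed by limma with a Benjamini-Hochberg adjusted p under 0.05, so their differences from PBS changed between the 2 times. The members themselves are left out, since their rule used this difference. Over all 9885 genes tested, 470 were called higher and 680 lower at NM day 28 against NM day 1. The named genes were chosen after their values were seen, so nothing is read from the count of 10. The log2 difference, NM day 28 minus NM day 1, was -3.66 ± 0.24 (SE) for Tgfbi (limma adjusted p = 7.18e-06), -2.32 ± 0.39 for Slpi (limma adjusted p = 0.00313) and -2.25 ± 0.29 for Cst7 (limma adjusted p = 0.000652). It was -2.06 ± 0.32 for Havcr2 (limma adjusted p = 0.00215), -1.92 ± 0.26 for Rsad2 (limma adjusted p = 0.0011), -1.76 ± 0.27 for Sdc4 (limma adjusted p = 0.00197) and -1.69 ± 0.29 for Adcy6 (limma adjusted p = 0.0034). It was -1.05 ± 0.25 for Nr4a2 (limma adjusted p = 0.0174), a call lost under quantile normalization and without NM day 1 replicate 0 or 1 (up to 0.0674). Hcst and Ctsk ran the other way. The difference was 1.53 ± 0.28 for Ctsk (limma adjusted p = 0.00509), and for Hcst 1.09 ± 0.26 (limma adjusted p = 0.0175), a call lost when replicate 0 or 1 of NM day 1, or replicate 0 or 2 of NM day 28, was left out (up to 0.0705). The 3 libraries of each group did not overlap for any of the 10 genes between the NM groups.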

How the results depend on the processing

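The size of the set depends on its limits. It was 41 genes, and became 20 with a pseudocount of 5 (14 shared with the 41), 78 with a day 1 difference of at least 1, 26 with at least 2, 22 with NM day 28 within 0.25 of PBS, 63 within 1, 78 with an NM day 1 mean of at least 1 FPKM and 10 with at least 20 FPKM. It was 28 with a pseudocount of 0.1 (22 shared), 42 after median-of-ratios scaling (41 shared), 35 after quantile normalization (34 shared) and 41 with transcripts taken singly (39 shared). With each library left out it ran from 35 to 54. Over all genes, 522 were called higher and 453 lower at NM day 1 against PBS, 303 and 393 at NM day 28 against PBS, and 470 and 680 at NM day 28 against NM day 1. A filter of 5 FPKM gave 324 higher at day 1 and 408 lower at day 28 against day 1, quantile normalization gave 274 lower at day 1, and a fit to the 6 libraries compared gave 212 lower at day 28 against PBS. With each library left out the counts ran from 252 to 656 and 66 to 718 at day 1, 154 to 367 and 117 to 426 at day 28, and 225 to 628 and 394 to 775 between the NM groups; the lowest ones at day 1 came without NM day 1 replicate 0. The cause of these shifts was not tested. No difference of a member, and no called difference of a named gene outside the set, changed direction under the alternatives run for it. Counts of the gene lists were not compared for direction, and some moved between higher and lower. Clotting genes beside F3 became 0 higher and 1 lower at day 1 under quantile normalization.

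Deviations from the group means correlated at -0.104 to 0.196 between libraries with the same replicate number. Between libraries with other numbers the range was -0.26 to 0.248. With 3 libraries a group, this check cannot decide whether the number pairs samples. With the replicate number as a block the counts were 481 higher and 347 lower at day 1, 278 and 348 at day 28, and 411 and 642 between the NM groups, all within 1.5 times.

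Of the named genes outside the set, the day 28 call of Cst7 was lost without NM day 28 replicate 0 or PBS replicate 0 or 1 (limma adjusted p up to 0.103), and that of Nos2 without NM day 28 replicate 2 or PBS replicate 1 (limma adjusted p up to 0.0555). With members left out, a filter of 5 FPKM took the day 1 higher counts to 3 early response factors and 2 co-stimulation genes, and no filter gave 2 co-stimulation genes. At day 28 no filter or a fit to the 6 libraries compared gave 3 protease inhibitors higher and 0 lower, no filter gave 1 airway epithelial marker lower and 0 alveolar epithelial markers higher, and a pseudocount of 0.1 gave 2 co-stimulation genes higher. With unknown absolute depth, values under about 1 FPKM are the least certain.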
